A study of Homo sapiens with 18 samples.

Results

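The mRNAs of 9 BCL2 family genes, namely BCL2L1, MCL1, BCL2, BAX, BAK1, BCL2L11, PMAIP1, BID and BAD, and of XIAP were followed in RKO cells, an established human colorectal carcinoma line, after depletion of ESCRT-I. The genes were found as the rows of the deposited counts whose RefSeq identifier belongs to one of these symbols, which gave 10 of 20802 gene targets. All 10 passed the filter on low counts, so that every gene of the set was tested. ESCRT-I is a complex on endosomes that sorts ubiquitinated membrane proteins toward lysosomes, and TSG101 and VPS28 encode core subunits of it. Cells received 30 nM of a single siRNA for 72 h. The 6 groups of 3 libraries each were siCtrl#1 and siCtrl#2, both nontargeting, siTsg101#1 and siTsg101#2 against TSG101, and siVps28#1 and siVps28#2 against VPS28. All groups, controls included, were transfected with the same reagent, no untransfected group was analysed here, and siCtrl#1 was the reference of the study. The submitters describe the replicates as biological. The data are from 1 line.

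Proteins of the BCL2 family decide whether the outer membrane of mitochondria is opened. BAX and BAK1 form the pores that release cytochrome c. BCL2, BCL2L1 (which encodes BCL-XL) and MCL1 hold them in check, and the BH3-only proteins BCL2L11 (BIM), PMAIP1 (NOXA), BID and BAD either activate BAX and BAK1 or occupy the groove of their inhibitors. XIAP acts after the pore and inhibits caspases directly. In colorectal carcinoma cells, BCL-XL and MCL1 are known as the main survival proteins of the family. Much of their control lies in protein turnover, cleavage and phosphorylation, which mRNA counts do not measure.

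The feature that joins the 9 family members is the BH3 segment, a short helix with a leucine, 3 residues of any kind, a small residue and an aspartate. It is shown here as DNA because it is the surface through which pro- and anti-apoptotic members bind each other. In the coding sequences of the GRCh37 annotation, each line gives 36 bases of the coding strand, 5′ to 3′, with the codons of the leucine, the small residue and the aspartate in capitals.
BCL2L1: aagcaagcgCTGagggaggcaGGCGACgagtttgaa
MCL1: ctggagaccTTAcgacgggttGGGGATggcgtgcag
BCL2: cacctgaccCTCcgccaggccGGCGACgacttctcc
BAX: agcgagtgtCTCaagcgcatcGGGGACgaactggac
BAK1: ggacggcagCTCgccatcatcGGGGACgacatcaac
BCL2L11: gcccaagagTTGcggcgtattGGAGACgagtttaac
PMAIP1: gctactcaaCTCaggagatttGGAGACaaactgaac
BID: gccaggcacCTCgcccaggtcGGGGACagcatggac
BAD: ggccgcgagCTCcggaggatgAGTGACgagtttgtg
In BAD the small residue is a serine, and in the others it is a glycine. MCL1 alone has the aspartate codon GAT, and the others have GAC. The pattern of codons is not rare, since 6685 of 18880 coding sequences (35.4%) hold it at least once, and BID holds a further match at codons 25 to 30. XIAP, which is no BCL2 family protein, has no match.

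On GRCh37 the segments lie at chr20:30309728-30309763 (minus strand) in BCL2L1, chr1:150551344-150551379 (minus strand) in MCL1, chr18:60985585-60985620 (minus strand) in BCL2, chr19:49459035-49459070 (plus strand) in BAX, and chr6:33543167-33543202 (minus strand) in BAK1. For the BH3-only genes they lie at chr2:111907671-111907706 (plus strand) in BCL2L11, chr18:57569896-57569931 (plus strand) in PMAIP1, chr22:18222184-18222219 (minus strand) in BID, and chr11:64039097-64039132 (minus strand) in BAD. Each is coding sequence within a single exon. The XIAP gene spans chrX:122993562-123047822 on the plus strand.

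The libraries held 2561790 to 7466916 reads assigned to genes. The counts of the 10 genes ran from 14 (BCL2 and BCL2L11 in their lowest library) to 7187 (MCL1 in its highest), and those of BCL2, BCL2L11 and BID were the thinnest. Levels are given as CPM, the counts scaled to the assigned reads of each library with TMM factors (normalized CPM), and differences as log2 fold changes from edgeR's quasi-likelihood test. A difference was called when its p-value, adjusted over 10213 tested genes, was under 0.05. Each gene was read by its own amplicon, so that levels are compared between groups within a gene and not between genes. TSG101 had 301 to 688 counts in the nontargeting libraries and 8 to 34 with its own siRNAs, and VPS28 had 298 to 514 and 12 to 45. The epithelial markers KRT8, KRT18, EPCAM and CDX2 were detected in all 18 libraries, CDH1 was at 0 in all of them, KRT19 in 17 and VIL1 in 14. PTPRC, CD3E, COL1A2 and ALB were at 0 throughout, and COL1A1 reached 11 counts at most. Of the 4 tested epithelial markers, EPCAM was higher (0.65) and KRT8 lower (-0.69) after ESCRT-I siRNA against siCtrl#1. For EPCAM, siCtrl#2 too exceeded siCtrl#1 (by 1.02, called), at a mean of 13.5 CPM that exceeded those of all 4 on-target groups (8.30 to 13.1), and the part of these markers in the results was not tested.

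**Figure D1:**
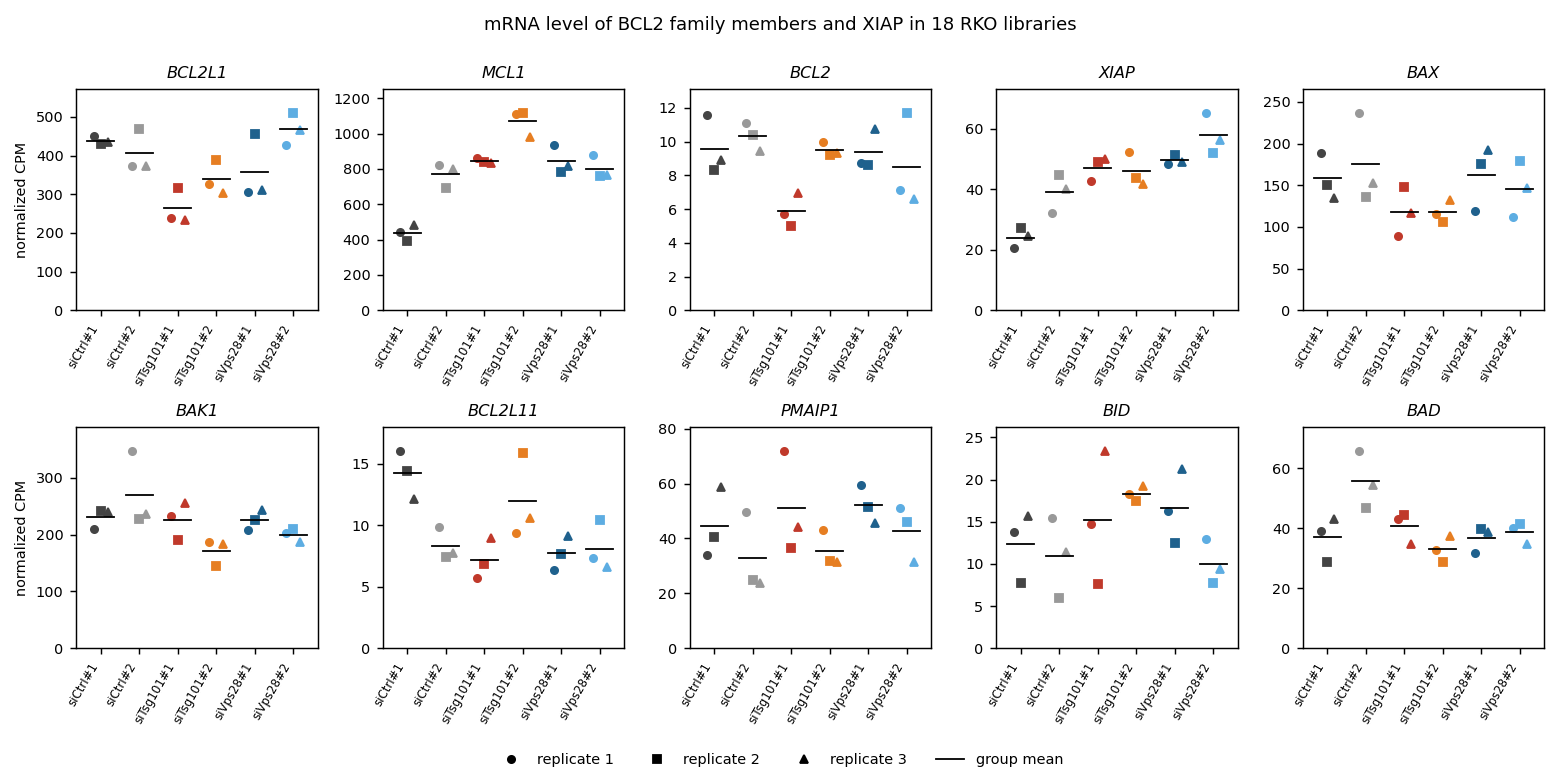
Normalized CPM (linear axis from 0) of each of the 10 genes in every library, by siRNA group, with symbols for replicates 1 to 3 and a bar at the group mean. For MCL1 and XIAP, the 3 siCtrl#1 libraries lie below all others, siCtrl#2 included; BAD is highest with siCtrl#2.

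To ask which of these mRNAs respond to loss of ESCRT-I, the 4 on-target siRNAs were first averaged and compared with siCtrl#1. MCL1 and XIAP rose about 2-fold, BCL2L11 fell, and the other 7 were not called. The 3 calls of 10 stand beside a background of 23.8% of all tested genes called in this comparison. All 3 were also at least 1.5-fold, as were 15.1% of tested genes. The median log2 fold change of the 10 genes was -0.09, beside -0.003 over all tested genes. MCL1 and XIAP were also higher with the second nontargeting siRNA than with the first, which is described gene by gene below. In RNA of a whole culture, a change in every cell and a change in the share of cells with a transcript cannot be told apart.

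Among BCL2, BCL2L1 and MCL1, only MCL1, the short-lived inhibitor of BAK1 and of BIM, was called over the 4 on-target siRNAs against siCtrl#1. With siCtrl#1 its level was 440.4, 393 and 483 CPM in replicates 1, 2 and 3, and with siCtrl#2 it was 822, 691 and 797. TSG101 siRNA gave 864, 839 and 833 CPM (siTsg101#1) and 1112, 1119 and 982 CPM (siTsg101#2). VPS28 siRNA gave 934, 779.8 and 814 CPM (siVps28#1) and 878, 762 and 766 CPM (siVps28#2). All 12 on-target libraries were thus above all siCtrl#1 libraries, as for 5.87% of tested genes, but 4 of the 12 did not exceed the highest siCtrl#2 library. The log2 fold change of the averaged siRNAs against siCtrl#1 was 1.01 (SE 0.12, 95% confidence interval 0.77 to 1.25, adjusted p = 1.77e-06, edgeR), and each siRNA passed alone, with values from 0.87 to 1.29. siCtrl#2 differed from siCtrl#1 by 0.81 (SE 0.14, adjusted p = 0.00178, edgeR). Against siCtrl#2 the on-target siRNAs differed by 0.20, with an interval of -0.03 to 0.43 (adjusted p = 0.233, edgeR). siTsg101#2 remained higher than siCtrl#2, by 0.48 (SE 0.14, adjusted p = 0.0196, edgeR). The transcript shares 328 exon bases with ADAMTSL4-AS1 on the same strand.

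BCL2L1, the gene of BCL-XL, was lower after siTsg101#1. Its level was 451, 429 and 436 CPM with siCtrl#1 and 374, 469.9 and 374 with siCtrl#2. With siTsg101#1 it was 239, 317 and 233 CPM, below all 6 nontargeting libraries (as for 10.6% of tested genes), and with siTsg101#2 it was 326, 388 and 304. With siVps28#1 it was 305, 456 and 310.4 CPM and with siVps28#2 427, 511 and 466, which overlapped both controls. The fall with siTsg101#1 was called against siCtrl#1 (log2 fold change -0.74, SE 0.17, adjusted p = 0.00302, edgeR) and against siCtrl#2 (-0.62, SE 0.17, adjusted p = 0.013, edgeR). With siTsg101#2, whose libraries overlapped those of siCtrl#2, the difference was not called against siCtrl#1 (-0.37, adjusted p = 0.132, edgeR) or siCtrl#2 (-0.26, adjusted p = 0.327, edgeR). Averaged over the on-target siRNAs, the difference from siCtrl#1 was not called (-0.33, adjusted p = 0.078, edgeR), but with the replicate number as a block it was (-0.35, adjusted p = 0.0186, edgeR). Of the exon bases of BCL2L1, 1735 overlap the antisense gene ABALON. The strand setting of the counting is not given in the sources used here, so reads of both genes cannot be told apart.

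BCL2 itself was read thinly, with 14 to 71 counts per library. It was 11.6, 8.30 and 8.89 CPM with siCtrl#1, 11.1, 10.4 and 9.44 with siCtrl#2, and 5.73, 4.98 and 6.98 with siTsg101#1, whose libraries lay below all nontargeting ones, again beside 10.6% of tested genes. In the other 3 on-target groups it ranged from 6.59 to 11.7 CPM. The difference of siTsg101#1 was -0.67 (adjusted p = 0.0599, edgeR) against siCtrl#1 and -0.77 (SE 0.26, adjusted p = 0.0395, edgeR) against siCtrl#2, so that it was called against the latter only.

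The pore-forming effectors were not called against siCtrl#1. BAX was between 135 and 237 CPM in the nontargeting libraries and between 88.8 and 192 in the on-target ones, and its mean difference was -0.23 (95% confidence interval -0.59 to 0.13, adjusted p = 0.374, edgeR). BAK1 was 210.2, 242 and 241 CPM with siCtrl#1 and 348, 228 and 236 with siCtrl#2, where replicate 1 stood above the rest. With siTsg101#2 it was 187, 144 and 183 CPM, the lowest group, and elsewhere it ranged from 187 to 255. Against siCtrl#2 it fell with siTsg101#2 by 0.66 on the log2 scale (SE 0.17, adjusted p = 0.00886, edgeR) and over the 4 on-target siRNAs by 0.40 (SE 0.13, adjusted p = 0.0358, edgeR). Against siCtrl#1 the latter was -0.17 (adjusted p = 0.367, edgeR). Exact copies of 50 bases elsewhere in the genome, at BAK1P1 and ENSG00000285382, cover 76.9% of the BAK1 transcript. Whether its amplicon lies in them is not known, so that its counts are uncertain.

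BCL2L11 was the BH3-only gene that fell relative to siCtrl#1. BIM, its product, binds every anti-apoptotic member. The level was 16.1, 14.4 and 12.1 CPM with siCtrl#1 and 9.85, 7.43 and 7.71 with siCtrl#2. With siTsg101#1 it was 5.73, 6.82 and 8.93 CPM, with siVps28#1 6.39, 7.68 and 9.16, and with siVps28#2 7.31, 10.4 and 6.59. With siTsg101#2 it was 9.36, 15.9 and 10.6 CPM, which reached into the range of siCtrl#1. The mean change against siCtrl#1 was -0.71 (SE 0.19, 95% confidence interval -1.11 to -0.31, adjusted p = 0.0102, edgeR), and it was called with siTsg101#1, siVps28#1 and siVps28#2 but not with siTsg101#2 (-0.24, adjusted p = 0.518, edgeR). Against siCtrl#2 the direction turned, to 0.061 (interval -0.38 to 0.50, adjusted p = 0.89, edgeR). Without siCtrl#1 replicate 1 the mean change against siCtrl#1 was -0.61 (adjusted p = 0.085, edgeR). Of the exon bases, 727 overlap the antisense gene MIR4435-2HG.

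The other BH3-only genes were not called against siCtrl#1. PMAIP1, whose product NOXA binds MCL1, was 34.0, 40.6 and 58.8 CPM with siCtrl#1 and 49.5, 25.0 and 23.9 with siCtrl#2, and 31.2 to 72.0 in the on-target libraries. Its mean difference was -0.0027 (interval -0.45 to 0.44) against siCtrl#1 and 0.45 (interval -0.02 to 0.92, adjusted p = 0.185, edgeR) against siCtrl#2. BID, which caspase-8 cleaves to link death receptors to mitochondria, ranged from 5.94 to 23.4 CPM over all libraries, and its mean difference was 0.23 (interval -0.34 to 0.79, adjusted p = 0.599, edgeR).

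BAD, which binds BCL2 and BCL-XL and is inactivated by growth factor signalling, differed in another way. It was 39.2, 28.9 and 43.1 CPM with siCtrl#1 and 65.9, 46.8 and 54.5 with siCtrl#2, and all 12 on-target libraries lay between 28.6 and 44.6. Every on-target library was thus below every siCtrl#2 library, as for 2.55% of tested genes. The mean difference was -0.007 (adjusted p = 0.977, edgeR) against siCtrl#1 and -0.59 (SE 0.14, 95% confidence interval -0.87 to -0.30, adjusted p = 0.00465, edgeR) against siCtrl#2. siCtrl#2 exceeded siCtrl#1 by 0.58 (adjusted p = 0.107, edgeR), which was not called. The antisense gene GPR137 overlaps 404 exon bases of BAD.

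XIAP rose with all 4 on-target siRNAs against siCtrl#1. It was 20.4, 27.0 and 24.6 CPM with siCtrl#1 and 32.1, 44.8 and 39.9 with siCtrl#2. TSG101 siRNA gave 42.6, 48.8 and 49.97 CPM (siTsg101#1) and 52.3, 43.7 and 41.7 CPM (siTsg101#2). VPS28 siRNA gave 48.2, 51.4 and 49.0 CPM (siVps28#1) and 65.3, 52.0 and 56.2 CPM (siVps28#2). All on-target libraries were above all siCtrl#1 libraries (5.87% of tested genes), and 9 of 12 were above all nontargeting ones. The mean change against siCtrl#1 was 1.06 (SE 0.14, 95% confidence interval 0.76 to 1.36, adjusted p = 1.16e-05, edgeR). Against siCtrl#2 it was 0.36 (interval 0.08 to 0.63, adjusted p = 0.0692, edgeR), with siVps28#2 called alone (0.57, SE 0.16, adjusted p = 0.0269, edgeR). The difference of siCtrl#2 from siCtrl#1 was 0.70 (SE 0.17, adjusted p = 0.0291, edgeR). Exact copies of 50 bases elsewhere cover 27.3% of the transcript.

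**Figure D2:**
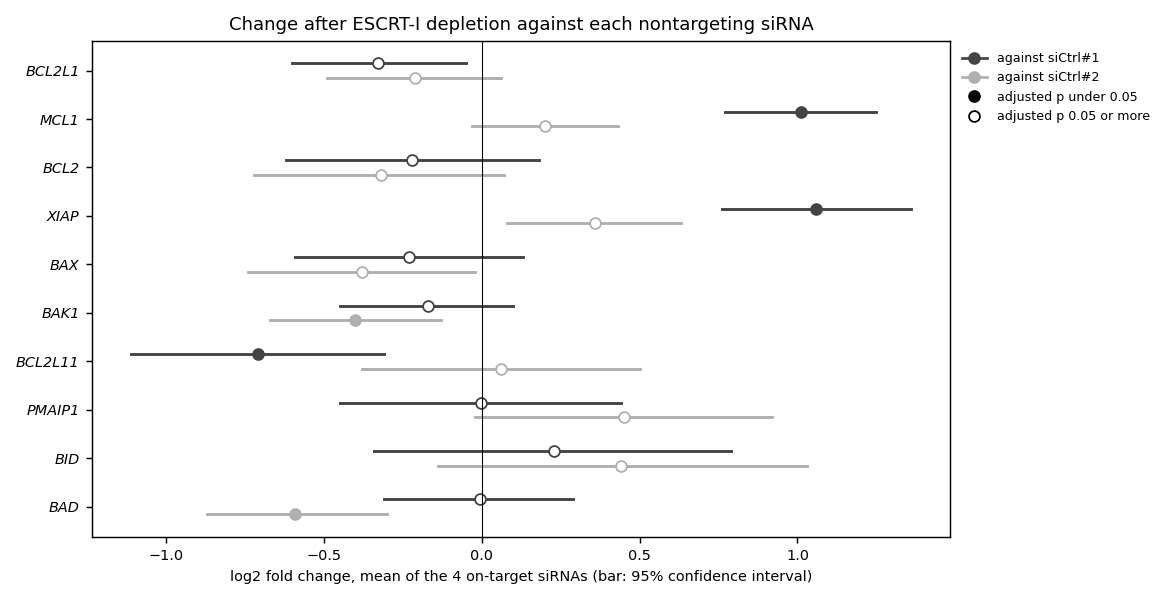
Log2 fold change of each gene over the 4 on-target siRNAs together, against siCtrl#1 (dark) and siCtrl#2 (light), with 95% confidence intervals; filled points have an adjusted p under 0.05. MCL1, XIAP and BCL2L11 are filled against siCtrl#1 only, BAK1 and BAD against siCtrl#2 only.

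The nontargeting siRNAs therefore gave different calls. siCtrl#2 against siCtrl#1 called 2 of the 10 genes, MCL1 and XIAP, where 2.16% of all tested genes were called. The on-target siRNAs called 2 genes against siCtrl#2, BAK1 and BAD, both lower, beside a background of 16.2%. Against the mean of both nontargeting siRNAs 4 were called, beside a background of 28.7%. MCL1 was higher by 0.61 (adjusted p = 1.28e-05, edgeR) and XIAP by 0.71 (adjusted p = 1.83e-05, edgeR). BAK1 fell by 0.29 (adjusted p = 0.037, edgeR) and BAD fell by 0.30 (adjusted p = 0.0469, edgeR). With the 4 siRNAs averaged, no gene of the set was called against each control in turn, whereas with single siRNAs BCL2L1 (siTsg101#1), MCL1 (siTsg101#2) and XIAP (siVps28#2) were. The share of all tested genes called against each control in turn was not taken, so this is a description only. Comparisons with the same control share its 3 libraries.

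The replicate number is the batch in the labels, and each batch holds 1 library of each siRNA. Within batches, MCL1 was higher than siCtrl#1 in 12 of 12 same-numbered pairs (log2 difference 0.67 to 1.51) and higher than siCtrl#2 in 11. XIAP was higher in 12 of 12 (0.69 to 1.66) and in 11. BCL2L11 was lower than siCtrl#1 in 11 of 12 pairs, and lower than siCtrl#2 in 6. BAD was lower than siCtrl#2 in 12 of 12 (-1.05 to -0.07). The pairs share control libraries and are not 12 independent comparisons.

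**Figure D3:**
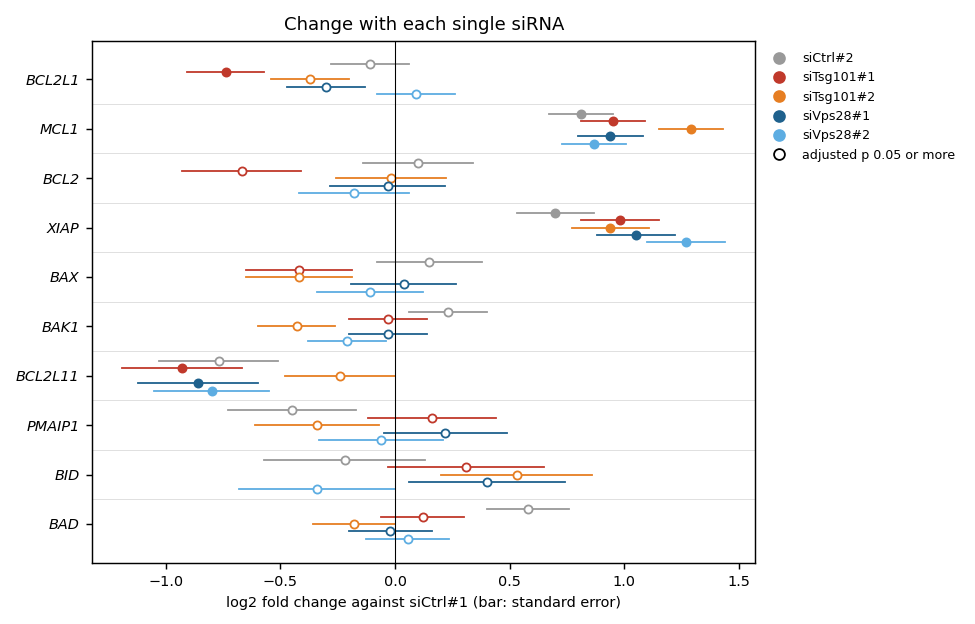
Log2 fold change against siCtrl#1 (bar: standard error) of each gene with siCtrl#2 and with each on-target siRNA; filled points have an adjusted p under 0.05. MCL1 and XIAP are filled in all 5 groups, BCL2L11 in 3 and BCL2L1 with siTsg101#1 only.

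Single siRNAs called between 2 and 4 of the genes against siCtrl#1. siTsg101#1 called 4 (background 26.3%), siTsg101#2 called 2 (20.7%), siVps28#1 called 3 (9.44%) and siVps28#2 called 3 (15.0%). MCL1 and XIAP were called higher with all 4 on-target siRNAs, as were 2.92% of tested genes. Against siCtrl#2 the calls were 2 with siTsg101#1 (18.4%), 3 with siTsg101#2 (16.9%) and 1 with siVps28#2 (10.4%). With siVps28#1, edgeR called 0 of 10 against siCtrl#2 (4.65%), and 3 had an unadjusted p under 0.05.

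To ask whether loss of either subunit had the same effect, both TSG101 siRNAs were compared with both VPS28 siRNAs. BCL2L1 alone was called, beside a background of 11.8%, and at 1.5-fold or more none was (6.23%). It was lower with TSG101 siRNA by 0.45 on the log2 scale (SE 0.12, interval of the difference -0.70 to -0.20, adjusted p = 0.0163, edgeR). This call was lost without siVps28#1 replicate 2 (-0.35, adjusted p = 0.0662, edgeR) or without siTsg101#1 replicate 3 (-0.41, adjusted p = 0.0515, edgeR). MCL1 and XIAP differed by 0.21 (interval 0.01 to 0.41) and -0.20 (interval -0.44 to 0.04), neither called. BAX differed by -0.38 (interval -0.71 to -0.05, adjusted p = 0.128, edgeR). Between the 2 TSG101 siRNAs edgeR called 0 of 10 genes (7.95%) with 5 at an unadjusted p under 0.05, and between the 2 VPS28 siRNAs 0 (0.48%) with 2. DESeq2 also called 0 in both.

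As BH3-only proteins and effectors act against inhibitors, the log2 ratio of a pro- to an anti-apoptotic mRNA was taken in each library, with differences between groups read and no test made. The BCL2L11 to MCL1 ratio was lower than with siCtrl#1 by 1.56 to 1.91 in the on-target groups and differed by -1.56 with siCtrl#2. The BAK1 to MCL1 ratio was lower than siCtrl#1 in every other group, with a difference of -0.61 for siCtrl#2, and -1.72 to -0.97 over the on-target groups, siTsg101#2 being the farthest. The PMAIP1 to MCL1 ratio differed from siCtrl#1 by -1.29 with siCtrl#2. With on-target siRNAs it differed from siCtrl#1 by -1.59 to -0.68, and siTsg101#1 overlapped siCtrl#1. From siCtrl#2 this ratio differed by 0.51 (siTsg101#1), -0.3 (siTsg101#2), 0.61 (siVps28#1) and 0.37 (siVps28#2). The BAX to BCL2 ratio moved by no more than 0.41 from siCtrl#1 in either direction. The on-target groups differed from siCtrl#1 by -0.89 to 0.11 for BCL2L11 to BCL2L1, and by -0.22 to 0.34 for BAX to BCL2L1. For siCtrl#2 these differences were -0.62 and 0.24. Against siCtrl#2, the farthest on-target group was at -0.36 for BCL2L11 to MCL1 (siTsg101#1). For BAK1 to MCL1 the on-target groups were at -1.11 to -0.36 against siCtrl#2.

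**Figure D4:**
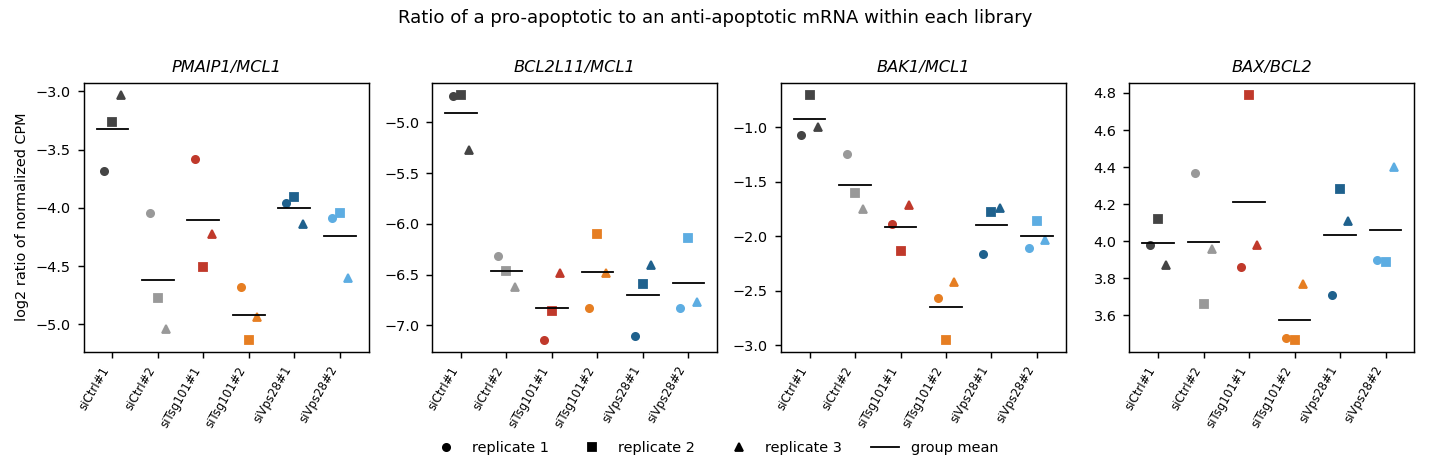
Log2 ratio of normalized CPM of a pro-apoptotic to an anti-apoptotic mRNA in each library (axes do not start at 0), by siRNA group, with a bar at the group mean. The siCtrl#1 libraries are the highest for BCL2L11/MCL1 and BAK1/MCL1, and the groups overlap for BAX/BCL2.

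The other genes of the pathway were read from lists, averaged over the 4 on-target siRNAs. Against siCtrl#1, 12.2% of all tested genes were called higher and 11.5% lower, and each list's counts stand beside these shares. Among other BCL2 family genes, 2 of 10 rose against siCtrl#1. These were BCL2A1, a further inhibitor (0.87, adjusted p = 0.00991, edgeR), and BNIP3L, a mitophagy receptor (0.53, adjusted p = 0.0116, edgeR). Neither was called against siCtrl#2 or with siTsg101#2, where BNIP3L averaged 103 CPM, below the 113 of siCtrl#1. BCL2L12, an atypical member, fell (-1.02, adjusted p = 3.03e-06, edgeR), also against siCtrl#2. BBC3, the gene of PUMA, was at 0.16 (adjusted p = 0.656, edgeR). The list's median was 0.30. Leaving out 1 library gave 1 to 4 calls on this list, with 1 left without siCtrl#1 replicate 2.

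XIAP belongs to the inhibitor of apoptosis proteins, of which 5 of 9 listed genes or antagonists were tested. BIRC3 (cIAP2), an NF-kB target, was 16.1 to 17.9 CPM with siCtrl#1, 8.84 to 15.8 with siCtrl#2 and 84.9 to 259 in the on-target libraries, with no overlap, as for 1.96% of tested genes. It rose by 3.15 against siCtrl#1 (SE 0.28, adjusted p = 5.22e-08, edgeR). BIRC2 (cIAP1) rose by 0.82 (adjusted p = 0.000482, edgeR), and BIRC5 (survivin), a mitotic gene, fell by 0.84 on the log2 scale (adjusted p = 1.25e-05, edgeR). BIRC3 and BIRC5 were called against siCtrl#2 too, and BIRC2 was not. HTRA2, the antagonist that was tested, was called higher over the 4 siRNAs against siCtrl#2 (as were 8.33% of tested genes) but not against siCtrl#1. Its means were 58.9 CPM with siCtrl#1, 51.0 with siCtrl#2, and 52.3 and 74.2 with siTsg101#1 and siTsg101#2. With siVps28#1 and siVps28#2 they were 68.4 and 84.8 CPM.

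On the list of apoptosome and caspase genes, 0 of 11 rose and 1 fell, CASP2 (-0.62, adjusted p = 0.000149, edgeR). DESeq2 gave the same count, and in edgeR 1 had an unadjusted p under 0.05. The counts of this paragraph against siCtrl#1 stand beside 12.2% of all tested genes called higher and 11.5% called lower. Of 6 tested death receptor genes, FAS (0.49, adjusted p = 0.0343, edgeR) and TNFRSF1A (0.39, adjusted p = 0.0259, edgeR) rose. TNFRSF1A averaged 143 and 131 CPM with siTsg101#1 and siTsg101#2, against 79.8 with siCtrl#1, but 83.8 and 76.4 with siVps28#1 and siVps28#2, neither of which was called. Over the 4 siRNAs TNFRSF1A was not called against siCtrl#2, but singly it was called higher there with siTsg101#1 and siTsg101#2. Among single siRNAs, FAS was called against siCtrl#1 with siTsg101#1 only. Against siCtrl#2, FAS and TNFRSF10A were called higher over the 4 siRNAs, as were 8.33% of tested genes. Singly, FAS was called higher there with siTsg101#1, siVps28#1 and siVps28#2 but not with siTsg101#2. Of 7 mitochondrial outer membrane partners and fusion genes, MFN1 rose and VDAC1 fell, and neither was called against siCtrl#2. Of 7 genes of MCL1 and NOXA protein turnover edgeR and DESeq2 called 0, with 1 at an unadjusted p under 0.05 in edgeR. Of 11 regulators of BH3-only transcription, CEBPB rose (3.05, adjusted p = 1.97e-05, edgeR) and TP73 and E2F1 fell, whereas FOXO3 was at -0.19 and not called.

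**Figure D5:**
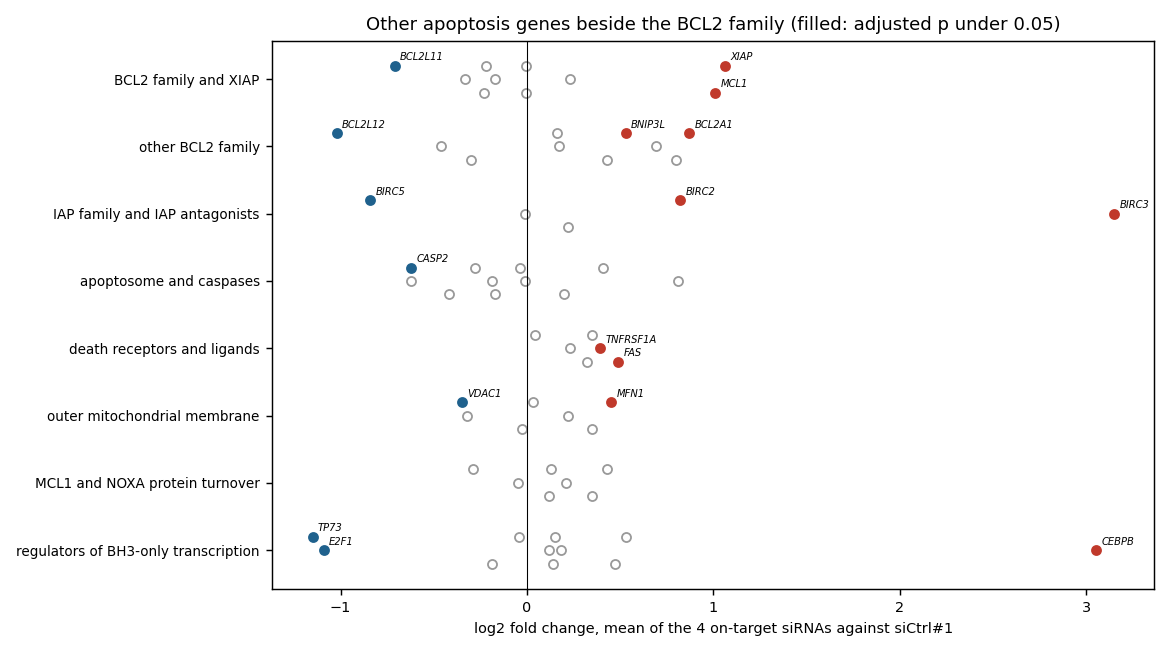
Log2 fold change against siCtrl#1, averaged over the 4 on-target siRNAs, for the tested genes, in rows for the genes of the set and 7 of the lists; filled points have an adjusted p under 0.05 and are named. BIRC3 and CEBPB lie farthest out, at 3.15 and 3.05; the uncalled genes of the top row lie between -0.33 and 0.23.

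Because loss of ESCRT-I is studied here for the transcription factors TFEB and TFE3, promoters of the genes were searched for the CLEAR motif that these factors bind (CACGTG with GT before it and AC after it) and for other letters, on both strands. RefSeq (GRCh38.p14) gave 17 windows of 300 bases, from 250 before to 50 after a start, for 9 of the 10 genes, MCL1 being the other. The E-box CACGTG, which lies inside the CLEAR motif, is in 7.26% of all 35116 windows and in 1 window of BAX and 2 overlapping windows of BID. The CLEAR motif is in 0.35% of windows and, of these genes, in BAX. None of the 17 windows holds the NF-kB letters (GGG, any 2 bases, TTTCC; in 1.91% of windows), TGANTCA (AP-1, 7.71%), TGACGTCA (CRE, 1.85%) or TCACNCCAC (SRE, 1.13%). The BAX window is shown for its 4 E-boxes, a number that 5 windows (0.014%) reach, and capitals mark them with the 10 letters of 2 CLEAR matches. On GRCh37 it lies at chr19:49457882-49458181 (plus strand).
BAX promoter: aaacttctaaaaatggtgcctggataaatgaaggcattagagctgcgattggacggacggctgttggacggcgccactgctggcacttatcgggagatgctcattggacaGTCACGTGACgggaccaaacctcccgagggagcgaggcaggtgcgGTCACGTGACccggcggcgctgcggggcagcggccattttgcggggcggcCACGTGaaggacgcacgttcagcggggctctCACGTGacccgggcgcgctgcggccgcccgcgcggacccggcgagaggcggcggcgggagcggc
The first bases of the E-boxes are 138, 93, 45 and 14 bases before the start. BAX mRNA was not called against either control. The matches are letters in a window and not measured binding.

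Over the 18 libraries, the tested genes whose log2 level was most like that of MCL1 were NTN1 (Pearson r 0.904), MET (0.90) and TTL (0.899). For XIAP they were DYNLT3 (0.915), MIB1 (0.905) and USP25 (0.904), and for BCL2L11 CSTF2T (0.892), PTPRU (0.857) and CDCA4 (0.836). MCL1 and XIAP correlated at 0.756, and BCL2L11 with them at -0.434 and -0.657. These values describe libraries that share siRNA groups and batches.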

How the data were processed

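The authors amplified RNA of 18 RKO libraries with an Ion AmpliSeq transcriptome panel, aligned reads to its hg19 reference and counted them with HTSeq 0.6.0 (per the labels and methods). They deposited raw counts per target, 1 list per library, and used DESeq2 1.18.1. Groups and replicate numbers came from the labels.

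As in the study, genes with over 100 summed counts were kept (10632). Noncoding genes (419, including unmatched noncoding accessions) were left out, which left 10213. All 6 groups were fitted together by edgeR 4.0.16 (R 4.3.3) with TMM factors and tested by quasi-likelihood, with p-values adjusted by Benjamini-Hochberg. Scripts were tested on simulated data. Amplified reads carry no molecular identifiers, so counting intervals were not used. The labels give the replicate number as the batch, but the main fit held no term for it. Its p-values therefore do not use the pairing, and the replicate block was an alternative. The mean correlation of same-numbered deviations was 0.145 (45 pairs, 30 of them above 0.1).

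A few items are not reported here. The genes and lists were chosen with earlier results of these data known. Named were the 10 genes, genes of the lists and markers, the targeted genes, and the 3 genes most correlated with each called gene. BH3 segments were searched as codons in GENCODE coding sequences because no protein sequences were used here. Alternatives were DESeq2 1.42.0, RLE factors, other filters, all gene types, the replicate block, siCtrl#2 or both nontargeting siRNAs as reference, the compared groups alone, a 1.5-fold minimum and leaving out each library.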

Additional observations from a re-analysis of the deposited data

Results flagged for a closer look

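TSG101 and VPS28 siRNAs differed for the following genes of the set and the lists in the test of the difference itself (log2 fold change of TSG101 against VPS28 siRNAs, edgeR's quasi-likelihood test). In the BCL2 family, values were lower with TSG101 than with VPS28 siRNA for BCL2L2 (-0.89, adjusted p = 0.0149, edgeR), BCL2L13 (-0.51, adjusted p = 0.0235, edgeR) and BCL2L1 (-0.45, adjusted p = 0.0163, edgeR). In the order siCtrl#1, siCtrl#2, siTsg101#1, siTsg101#2, siVps28#1 and siVps28#2, BCL2L2 means were 4.13, 4.46, 6.11, 3.88, 7.89 and 10.4 CPM. BCL2L2 had only 10 to 79 counts per library, and its siVps28#1 libraries ranged from 2.90 to 12.6 CPM. BCL2L13 means, in the same order, were 19.0, 20.9, 16.4, 19.6, 23.0 and 28.5 CPM. HUWE1, a ubiquitin ligase of MCL1, differed by -0.78 (adjusted p = 2.14e-05, edgeR), with a mean of 45.1 CPM for siTsg101#1 and 75.7 for siTsg101#2. CYCS, which encodes cytochrome c, differed by -0.63 (adjusted p = 0.00943, edgeR), and among single siRNAs was called against siCtrl#1 with siTsg101#1 only. Its means were 109.5 CPM there, 215.5 with siTsg101#2, 192.5 with siCtrl#1 and 229.9 to 245.6 with VPS28 siRNAs. MFN2, a mitochondrial fusion gene, differed by -0.35 (adjusted p = 0.0464, edgeR), and was low with siTsg101#2 only. Its means were 52.7 CPM there, 80.2 with siTsg101#1, 74.9 with siCtrl#1 and 81.4 to 84.1 with VPS28 siRNAs. Higher values with TSG101 siRNA were found for SESN1 (0.74, adjusted p = 0.0185, edgeR), TNFRSF1A (0.78, adjusted p = 2.75e-05, edgeR), TIGAR (1.04, adjusted p = 0.000164, edgeR) and CEBPB (2.72, adjusted p = 2.35e-07, edgeR). The TSG101 siRNAs also differed from each other for HUWE1 (-0.76, adjusted p = 0.00318, edgeR), CYCS (-0.97, adjusted p = 0.00807, edgeR), MFN2 (0.61, adjusted p = 0.0183, edgeR) and SESN1 (0.91, adjusted p = 0.0383, edgeR), given as siTsg101#1 against siTsg101#2.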

How the results depend on the processing

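The choice of nontargeting siRNA moved the calls most. With siCtrl#2 as the reference the number of called genes became 2 for siTsg101#1, 0 for siVps28#1 (edgeR, 3 at an unadjusted p under 0.05) and 1 for siVps28#2, and with both nontargeting siRNAs it became 4 for siTsg101#2. BCL2L11 reversed with siCtrl#2, to 0.061. For siCtrl#2 against siCtrl#1, a fit of these groups alone called 1 gene (MCL1), and leaving out 1 library gave 1 to 2 calls, XIAP being lost without siCtrl#1 replicate 1 or 3 or siCtrl#2 replicate 2 or 3. For TSG101 against VPS28 siRNAs, 2 genes were called with no filter (BAX added), 0 at 1.5-fold or more, and 0 to 1 when 1 library was left out. The replicate block called 4 genes for the mean of the 4 on-target siRNAs and 3 for siTsg101#2, each with BCL2L1 added, and changed no other count of called genes of the set. Among the lists, leaving out siCtrl#1 replicate 3 removed both calls of death receptor genes (0 left), and leaving out siCtrl#1 replicate 2 removed both of the outer membrane genes (0 left). The causes of these shifts were not tested. Shares of all tested genes were taken for siCtrl#2 as the reference and for the 1.5-fold minimum. With both nontargeting siRNAs as the reference, a share was taken for the mean of the 4 on-target siRNAs only. For single siRNAs against that reference, and for the other alternatives, no share was taken. Their counts therefore show shifts in calls only. The low counts of BCL2, BCL2L11 and BID limit their precision.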
